A study of Homo sapiens with 6 samples.

Results

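The S100 and annexin genes were taken from RNA sequencing of SKOV3, an ovarian cancer cell line, after siRNA against the long non-coding RNA DNM3OS. They were chosen by symbol among protein-coding genes: every S100A gene with a number, S100B, S100G, S100P and S100Z, every numbered annexin, and ANXA8L1. This gave 32 of the 34834 genes with a quantified transcript, 19 of them S100 genes and 13 annexins. Of the 32 genes, 19 passed the filter on low counts and were tested, 9 S100 genes and 10 annexins.

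S100 proteins are small calcium-binding proteins with paired EF-hand motifs that mostly work as dimers. On binding calcium they expose a surface that docks on partners such as myosin, p53 or annexins, and several are also released from cells and act on receptors such as AGER. Annexins bind negatively charged phospholipids when calcium rises, and are known for membrane repair, vesicle traffic and, at the cell surface, plasminogen activation. Both families meet in pairs such as S100A10 with ANXA2 and S100A11 with ANXA1, and in epithelial cancers S100A4 is widely used as a marker of mesenchymal, motile cells.

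Cells of both groups were transfected with 50 nM siRNA using the lipid reagent Lipofectamine and collected after 48 h. The 3 DNM3OS_KD samples received a pool of siRNAs against DNM3OS and the 3 NT samples a non-targeting pool. Total RNA depleted of ribosomal RNA was sequenced with strand-preserving libraries, and the comparison asked which genes depend on DNM3OS in cells that were not otherwise treated. Nothing in the labels says whether the replicates were separate cultures, so every p-value measures only the spread between these samples, and the level of DNM3OS itself was not analysed here.

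All 9 tested S100 genes lie on chromosome 1, and the annexins are scattered over the genome. The starts of 5 genes with which the values below are mainly concerned are shown to give their sequence context, 250 bases before and 50 after the transcription start in the RefSeq annotation of GRCh38.p14, read 5′ to 3′ on the gene's strand. S100A6 lies at chr1:153535942-153536241, S100A4 at chr1:153545757-153546056, S100A2 at chr1:153565795-153566094 and ANXA2 at chr15:60397937-60398236, all on the minus strand, and ANXA1 at chr9:73151615-73151914 on the plus strand. Capitals mark matches on either strand to the TATA box TATAAA, the GC box GGGCGG, the CCAAT box CCAAT and the AP-1 site TGANTCA, and neighbouring GC boxes overlap each other.
S100A6: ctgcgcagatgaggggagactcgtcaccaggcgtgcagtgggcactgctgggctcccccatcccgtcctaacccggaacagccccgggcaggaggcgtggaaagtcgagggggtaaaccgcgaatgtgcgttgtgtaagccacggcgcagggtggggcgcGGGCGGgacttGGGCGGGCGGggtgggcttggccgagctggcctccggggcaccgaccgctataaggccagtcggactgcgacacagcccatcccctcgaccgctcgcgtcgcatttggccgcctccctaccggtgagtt
S100A4: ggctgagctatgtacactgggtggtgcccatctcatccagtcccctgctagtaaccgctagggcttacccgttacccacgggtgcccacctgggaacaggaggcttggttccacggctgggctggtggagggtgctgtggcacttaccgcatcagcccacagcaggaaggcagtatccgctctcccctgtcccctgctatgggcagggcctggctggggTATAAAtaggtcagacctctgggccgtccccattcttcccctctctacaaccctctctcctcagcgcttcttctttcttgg
S100A2: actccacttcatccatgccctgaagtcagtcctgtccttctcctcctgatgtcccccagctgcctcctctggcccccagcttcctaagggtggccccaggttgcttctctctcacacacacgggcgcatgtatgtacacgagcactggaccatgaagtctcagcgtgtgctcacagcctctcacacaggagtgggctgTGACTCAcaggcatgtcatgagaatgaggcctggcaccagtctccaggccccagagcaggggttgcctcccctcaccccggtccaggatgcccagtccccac
ANXA2: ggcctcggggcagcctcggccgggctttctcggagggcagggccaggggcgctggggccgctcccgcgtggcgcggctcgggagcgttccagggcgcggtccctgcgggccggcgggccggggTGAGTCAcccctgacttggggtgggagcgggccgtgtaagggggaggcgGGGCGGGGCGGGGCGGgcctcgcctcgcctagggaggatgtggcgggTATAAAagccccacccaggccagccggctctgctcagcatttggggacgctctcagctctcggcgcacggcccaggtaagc
ANXA1: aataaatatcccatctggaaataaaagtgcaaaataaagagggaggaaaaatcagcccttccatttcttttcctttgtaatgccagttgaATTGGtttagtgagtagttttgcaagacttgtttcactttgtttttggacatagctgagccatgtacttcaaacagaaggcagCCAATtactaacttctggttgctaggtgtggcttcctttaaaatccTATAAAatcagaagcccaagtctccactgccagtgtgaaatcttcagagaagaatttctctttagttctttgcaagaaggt

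S100A6 held 3 GC boxes and no TATA box by these letters, S100A4 held a TATA box alone, and S100A2 held an AP-1 site alone. ANXA2 held 1 AP-1 site, 1 TATA box and 3 GC boxes, whereas ANXA1 held 1 TATA box and 2 CCAAT boxes in a window with a GC content of 37.7%. Of the 32 genes, 29 had an entry in the RefSeq promoter table. The AP-1 letters were found in 4 of these 29 windows and in 7.72% of all 34943 promoters of the same length. TATAAA was found in 11 of 29 and in 11.6% of all promoters, and 4 of those 11 windows belonged to tested genes. GGGCGG was found in 12 of 29 and in 44.9% of all, and CCAAT in 7 of 29 and in 34.7% of all. A match describes the letters of the window and is not evidence of binding.

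Libraries held 1523046 to 1868325 estimated counts on genes, so that 3 counts correspond to 1.4 to 2.11 CPM (counts scaled to a common library size, here after TMM scaling), and genes with few counts carry a wide counting error. DNM3OS_KD 1 had the lowest share of counts on ribosomal protein genes and NT 2 the next lowest, with DNM3OS_KD 2 not far above NT 2. The 86 cytosolic ribosomal protein genes held 0.232%, 0.384% and 0.397% of counts in DNM3OS_KD 1, 2 and 3, and 0.543%, 0.32% and 0.524% in NT 1, 2 and 3. Of 11 epithelial and ovarian markers, KRT8 was at 2613 to 5740 TPM (a length-corrected level) and ERBB2, amplified in SKOV3, at 208 to 429 TPM. KRT18 and KRT19 had means of 69.8 and 70.1 TPM. EPCAM, PAX8, KRT7 and CDH1 had means of 11.2 to 19.9 TPM, and WT1, MUC16 and MSLN were at 0 to 4 counts in any library. The highest leukocyte marker, PTPRC, had a mean of 80.5 TPM, and the others had means of 0 to 27.3 TPM. Among fibroblast markers DCN was highest at 38.0 TPM, and the others had means of 0.0217 to 25.1 TPM.

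No S100 or annexin gene passed the test. With edgeR's exact test, a change of at least 2-fold and a Benjamini-Hochberg adjusted p under 0.05, 0 of 19 genes were called lower and 0 higher, beside 0.00846% of the 11814 genes tested that were called lower and 0.0% called higher. The single gene called lower was BORCS7-ASMT, which belongs to neither family. The adjusted p was 1 for each of the 19. At an unadjusted p under 0.05 there were 2 members, S100A2 and ANXA7, both with lower means, beside 1.91% of all genes tested in that direction and 1.01% in the other. By edgeR's quasi-likelihood test and by DESeq2 no member was called either.

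The means of 17 of the 19 genes were lower in DNM3OS_KD, beside 49.4% of all genes tested, but this count was 10 when libraries were scaled to their ribosomal protein counts and 7 when the ribosomal protein share entered the model. Scaling to ribosomal protein counts raised the median log2 fold change of all genes to 0.51, and the members' median under it was -0.13. The rise differed between members: S100A10 moved from -0.73 to -0.40 and ANXA8 from 0.56 to 1.14. In the main fit, with TMM scaling and edgeR's exact test, the median was -0.55 for the 19 genes and 0.00417 for all genes tested. The members' median was -0.22 without DNM3OS_KD 1 and -0.29 without NT 1. All 9 S100 genes had a lower mean, with a median of -0.73, and 8 of 10 annexins did, with a median of -0.17. In RNA from bulk cells, fewer cells expressing a gene and less RNA per cell cannot be told apart. Knockdown and non-targeting values did not overlap for 4 genes on the lower side (S100A1, S100A2, ANXA7 and ANXA11) and for ANXA8 on the higher side, beside 3.56% and 4.42% of all genes tested.

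**Figure D1:**
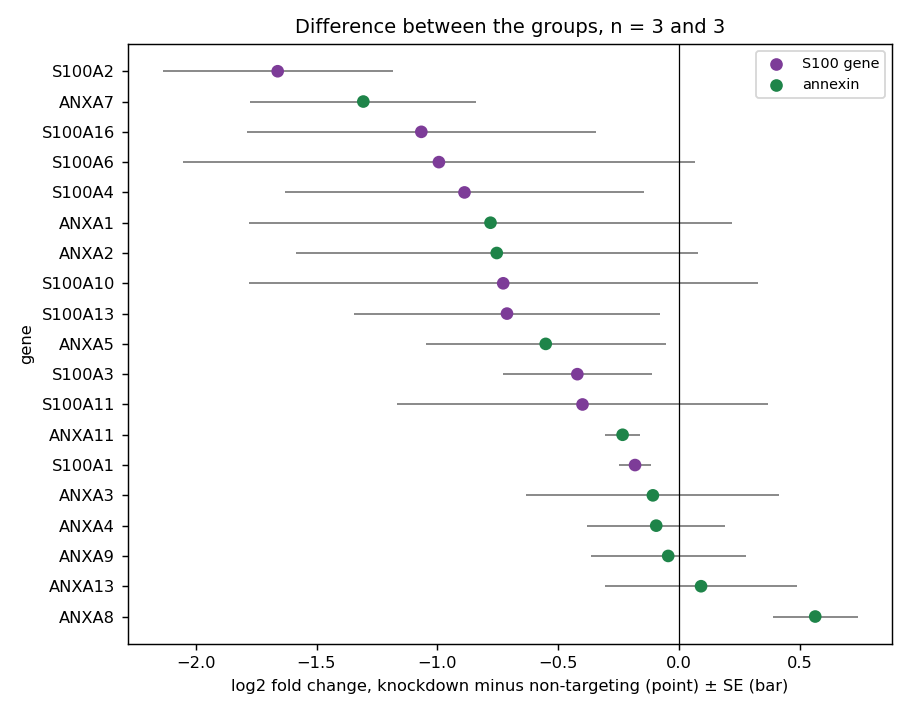
Log2 fold change of each tested gene, knockdown minus non-targeting, on the horizontal axis, with S100 genes in purple and annexins in green; bars are standard errors from the spread of log2 CPM between replicates (n = 3 and 3). S100A2 lay lowest at -1.66 and ANXA8 highest at 0.56, and the bars of several abundant genes, such as S100A6 at -0.99 with an SE of 1.06, cross 0.

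On the length-corrected scale S100A6 was the most abundant member, with a mean of 253 TPM over the 6 samples and a range of 60.2 to 503 TPM. S100A1 followed at 122 TPM, S100A4 at 94.8, ANXA2 at 87.3, ANXA1 at 75.0, S100A3 at 62.6 and ANXA5 at 62.5. ANXA11, S100A13, S100A16 and ANXA9 had means of 32.6 to 45.1 TPM. ANXA4, S100A2, ANXA13, ANXA3, S100A10, S100A11, ANXA8 and ANXA7 had means of 10.4 to 24.9 TPM. The order is loose, since for all 18 pairs of neighbours in it the ranges over samples overlapped. All 19 S100 genes summed to 319, 630 and 663 TPM in DNM3OS_KD 1, 2 and 3 and to 1178.5, 504 and 955 TPM in NT 1, 2 and 3, so that NT 2 lay below DNM3OS_KD 2 and 3.

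**Figure D2:**
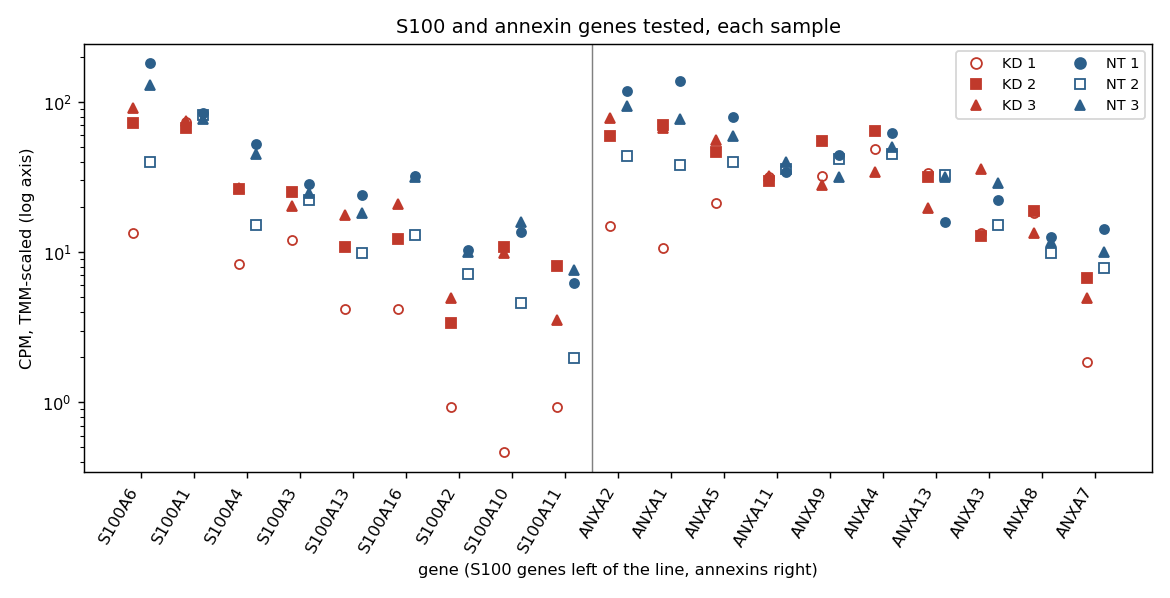
TMM-scaled CPM of the 19 tested genes in each sample on a log axis, DNM3OS_KD in red and NT in blue, circles, squares and triangles for replicates 1, 2 and 3, open symbols for DNM3OS_KD 1 and NT 2. S100A6 ran from 13.5 CPM in DNM3OS_KD 1 to 181 in NT 1, whereas S100A1 stayed between 66.9 and 84.9 CPM.

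S100A10 and ANXA2 form a heterotetramer at the plasma membrane, in which S100A10, a family member that no longer binds calcium, holds a pair of ANXA2 chains. ANXA2 (ENSG00000182718, chr15:60347134-60402883) had 14.9, 59.4 and 78.6 CPM in DNM3OS_KD 1, 2 and 3 and 119, 43.9 and 93.5 CPM in NT 1, 2 and 3. The values overlapped, with NT 2 below DNM3OS_KD 2 and 3, and the log2 fold change was -0.75 ± 0.83 (SE). S100A10 (ENSG00000197747, chr1:151982915-151993859) had 0.465, 10.8 and 9.82 CPM after knockdown and 13.7, 4.58 and 15.9 in NT, where the first value is 1 count. Both partners were thus lowest in DNM3OS_KD 1 and next lowest in NT 2, and S100A10 had a log2 fold change of -0.73 ± 1.05.

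S100A11 and ANXA1 are the second pair. ANXA1 (ENSG00000135046, chr9:73151865-73170393), which restrains inflammation through formyl peptide receptors, had 10.7, 70.2 and 66.7 CPM in DNM3OS_KD and 138, 38.0 and 76.5 in NT. S100A11 (ENSG00000163191, chr1:152032506-152047907) had 0.93, 8.10 and 3.51 CPM against 6.27, 1.96 and 7.65, from at most 13 counts a library. Each gene was lowest in DNM3OS_KD 1 and second lowest in NT 2. Their log2 fold changes were -0.78 ± 1.0 and -0.40 ± 0.77, smaller than their standard errors.

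S100A6 (calcyclin, ENSG00000197956, chr1:153534599-153536244), whose partner CACYBP takes part in ubiquitin-dependent breakdown of beta-catenin, had 13.5, 72.9 and 90.5 CPM in DNM3OS_KD and 181, 39.9 and 131 CPM in NT. S100A4 (ENSG00000196154, chr1:153543613-153550136), which binds non-muscle myosin and promotes motility, had 8.37, 26.3 and 26.7 CPM against 52.4, 15.1 and 44.7. In both genes 2 controls lay above every knockdown sample and NT 2 lay below 2 of them. The log2 fold changes were -0.99 ± 1.06 for S100A6 and -0.89 ± 0.74 for S100A4.

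Without DNM3OS_KD 1 and NT 2, a comparison of 2 against 2 samples chosen after seeing the data, S100A6 had a log2 fold change of -0.91 with an adjusted p of 0.0049 by edgeR's exact test, which misses the 2-fold threshold. S100A4 then had -0.85 with an adjusted p of 0.073 by the same test, and ANXA2 -0.61 with 0.195. The samples left out were the lowest in ribosomal protein share, and each was also the lowest of its group for S100A6, S100A4 and ANXA2. Leaving them out narrows the spread within groups through that choice, so these adjusted p cannot serve as a test of the knockdown. The same 4 samples gave 31 genes called lower and 8 higher, and no S100 or annexin gene among them. With the ribosomal protein share in the model, S100A6 was at 0.31, S100A4 at 0.16 and ANXA2 at 0.19 on the log2 scale, the opposite sign.

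S100A2 and S100A16 had the lowest log2 fold changes of the S100 genes. S100A2 (ENSG00000196754, chr1:153561108-153567890), a mostly nuclear p53-binding protein of keratinocytes, had 0.93, 3.38 and 4.91 CPM in DNM3OS_KD and 10.3, 7.20 and 10 in NT, from 2 to 18 counts a library. Every control lay above every knockdown sample. The log2 fold change was -1.66 ± 0.48, with an unadjusted p of 0.0028 by edgeR's exact test, an adjusted p of 1 and an exact two-sided permutation p of 0.1, the smallest that 3 against 3 samples allow. S100A16 (ENSG00000188643), widely expressed in epithelia, had 4.19, 12.2 and 21.1 CPM against 31.9, 13.1 and 31.8, and its log2 fold change was -1.07 ± 0.72 with overlapping groups.

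The last 3 tested S100 genes were S100A13, S100A3 and S100A1. S100A13 (ENSG00000189171), which helps release FGF1 from cells, had 4.19, 10.8 and 17.5 CPM in DNM3OS_KD and 23.9, 9.82 and 18.2 in NT, and S100A3 (ENSG00000188015), a hair cuticle protein, had 12.1, 25.0 and 20.3 against 28.5, 22.3 and 24.7. Both overlapped between groups, at -0.71 ± 0.63 and -0.42 ± 0.31 on the log2 scale. S100A1 (ENSG00000160678, chr1:153627926-153632039), known for calcium handling in muscle, had 73.5, 66.9 and 74.4 CPM in DNM3OS_KD and 84.9, 82.5 and 76.5 in NT. Its samples were close to each other and did not overlap between groups, and the log2 fold change was -0.18 ± 0.07 with an unadjusted p of 0.392 by edgeR's exact test and an exact two-sided permutation p of 0.1.

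Among the other annexins, ANXA7 (synexin, ENSG00000138279, chr10:73375101-73414076), which promotes membrane fusion, had 1.86, 6.75 and 4.91 CPM in DNM3OS_KD and 14.2, 7.86 and 10 in NT, from 4 to 25 counts. The groups did not overlap and the log2 fold change was -1.31 ± 0.47, with an unadjusted p of 0.0148 by edgeR's exact test and an adjusted p of 1. ANXA5 (ENSG00000164111), the phosphatidylserine-binding protein used to stain dying cells, had 21.4, 46.6 and 55.4 CPM against 79.7, 39.9 and 59.4. The groups overlapped at a log2 fold change of -0.55 ± 0.50. ANXA11 (ENSG00000122359), which tethers RNA granules to lysosomes, had 31.6, 29.7 and 32.3 CPM against 34.2, 36.0 and 40.0. It did not overlap between groups at -0.23 ± 0.07, but was at 0.20 with length-scaled counts. Scaling to ribosomal protein counts put it at 0.29, where the median of all genes was 0.51.

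ANXA8 (ENSG00000265190, chr10:47460162-47484158), an annexin of squamous and stressed epithelia, was the only member whose knockdown samples all lay above the controls. It had 18.1, 18.9 and 13.3 CPM in DNM3OS_KD and 12.5, 9.82 and 11.8 in NT, with a log2 fold change of 0.56 ± 0.18, an unadjusted p of 0.102 by edgeR's exact test and an exact two-sided permutation p of 0.1. ANXA3, ANXA4, ANXA9 and ANXA13 had log2 fold changes of -0.11, -0.09, -0.04 and 0.09, with standard errors of 0.29 to 0.52. ANXA4 (ENSG00000196975), an annexin of secretory epithelia, had 34.4 to 64.2 CPM in DNM3OS_KD and 45.2 to 62.1 in NT, and ANXA9 (ENSG00000143412), whose calcium sites are degenerate, had 28.1 to 54.7 and 31.8 to 44.4. ANXA3 (ENSG00000138772) had 12.8 to 35.8 and 15.1 to 28.8 CPM, and ANXA13 (ENSG00000104537), best known from intestinal epithelium, 19.6 to 33.5 and 15.9 to 32.7. In all 4 the ranges of the groups overlapped.

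The other 13 genes did not pass the filter and received no test. S100A7, S100A8, S100A9, S100A12 and S100Z were at 0 counts in each library, where a count of 0 allows up to 3 counts, or 1.4 to 2.11 CPM by library. Most of these are known from neutrophils or inflamed epidermis, and of 9 leukocyte markers CD14 and ITGAM were also at 0 in each library, while PTPRC had 91 to 148 counts and the 9 summed to 158 to 193 TPM in DNM3OS_KD and 148 to 159 TPM in NT. S100A5 had 8, 9 and 6 counts in DNM3OS_KD and 11, 3 and 15 in NT, and S100P, often high in pancreatic and other carcinomas, had 5, 8 and 5 against 8, 2 and 5. S100B, a glial and melanocyte protein, had 17, 8 and 1 counts against 11, 7 and 7, and S100G, an intestinal calcium carrier, had at most 7. ANXA6 had 0, 6 and 3 counts against 10, 4 and 7, ANXA10 had 15, 2 and 12 against 3, 5 and 8, S100A14 had at most 2 and ANXA8L1 had 1 count in 1 library.

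Several members shared an order of the libraries that did not follow the groups. DNM3OS_KD 1 and NT 2 were the 2 lowest samples for 8 of the 19 genes, beside 18.2% of all genes tested. These 8 were S100A4, S100A6, S100A10, S100A11, S100A13, ANXA1, ANXA2 and ANXA5. Housekeeping genes had a similar order. Of 10 such genes all 10 had a lower mean in DNM3OS_KD, with a median log2 fold change of -0.83, and 8 had DNM3OS_KD 1 and NT 2 as their lowest samples. GAPDH had 27, 186 and 179 counts in DNM3OS_KD and 414, 101 and 289 in NT. With the ribosomal protein share in the model, 7 of the 19 members had a lower mean and their median log2 fold change was 0.06, and without DNM3OS_KD 1 and NT 2, when S100A5 also passed the filter, it was -0.46.

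**Figure D3:**
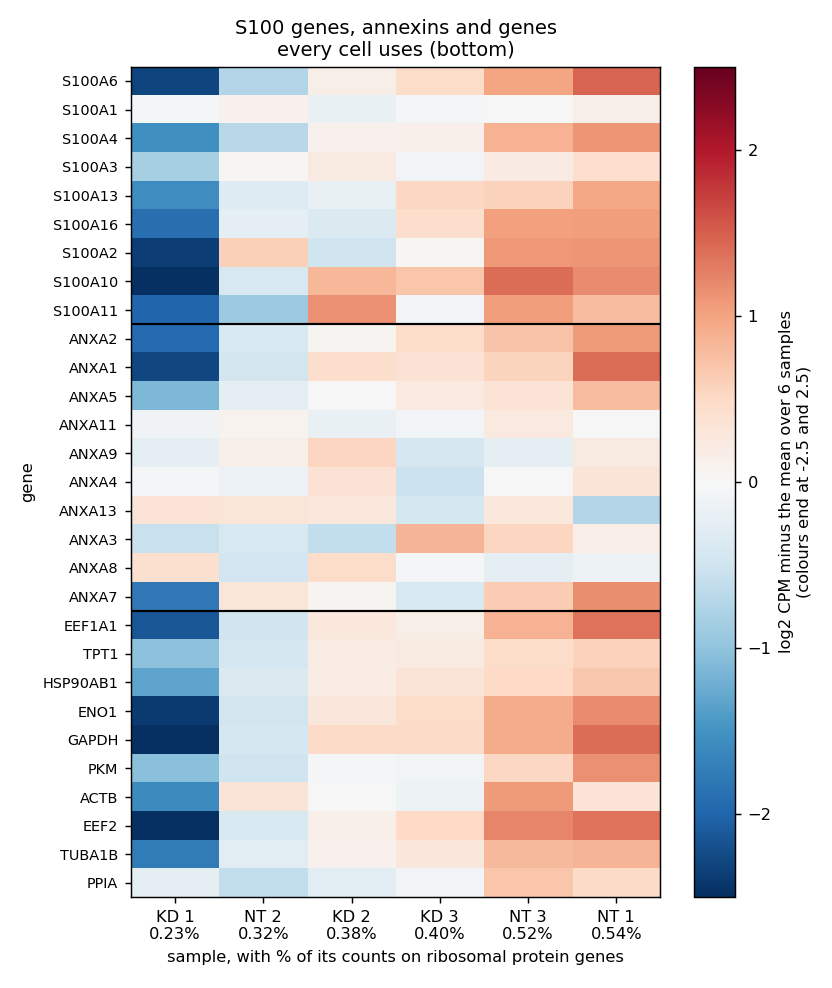
Log2 CPM minus the gene's mean over 6 samples, in blue for lower and red for higher, for the S100 genes (top), annexins (middle) and 10 genes every cell uses (bottom), with samples ordered by how many of their counts fell on ribosomal protein genes. The column of DNM3OS_KD 1, with the lowest share at 0.23%, is blue for most genes and the columns of NT 3 and NT 1 are red, while S100A1, ANXA11, ANXA4 and ANXA8 are pale across the row.

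Members differed in the kind of transcript that held their counts, and the kinds differed in how far they varied between libraries. Over all 32 genes, 69.8% of counts lay on transcripts annotated as protein-coding and 30.2% on other kinds, such as retained introns or transcripts without a defined coding sequence. Counts on the coding transcripts summed to 155, 453 and 458 CPM in DNM3OS_KD 1, 2 and 3 and to 825, 316 and 623 in NT 1, 2 and 3, a 5.31-fold range. Counts on the other kinds summed to 212, 205 and 201 CPM against 175, 210 and 197, a 1.22-fold range. The coding sums put the 6 libraries in the same order as the share of ribosomal protein genes did. Over all genes tested the other kinds held 35.0% to 39.0% of a library's counts, most in DNM3OS_KD 1.

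**Figure D4:**
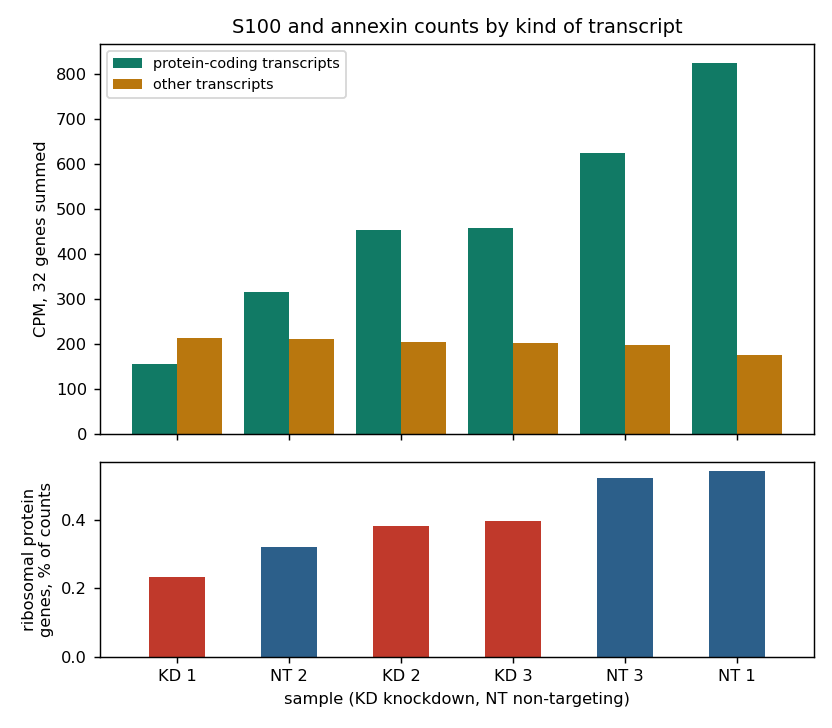
Top, CPM summed over the 32 genes on protein-coding transcripts (green) and on other transcripts (orange) in each sample; bottom, ribosomal protein genes as a percent of all counts (red DNM3OS_KD, blue NT), with samples ordered by that share. The green bars climb from 155 to 825 CPM along the order, and the orange bars stay between 175 and 212 CPM.

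In 4 tested genes over 50% of the counts lay on the other kinds. These were ANXA13, with 99.6% on a retained-intron transcript, ANXA8, with 94.3% on a transcript without a defined coding sequence, ANXA4 with 88.4% and S100A1 with 66.0%. Their highest library was 1.27 to 2.10 times their lowest, their median log2 fold change was -0.0017, and in none were DNM3OS_KD 1 and NT 2 the 2 lowest. In the other 15 that ratio had a median of 7.62 and ran from 1.35 for ANXA11 and 1.95 for ANXA9, as even as the 4, to 34.1 for S100A10, whose lowest library held 1 count. All 15 had a lower mean in DNM3OS_KD, and their median log2 fold change was -0.73. Most counts of the 4 genes thus lay on transcripts with no annotated protein product. This split was made after the values were seen and carries no test. With coding transcripts alone, 14 of the 15 members that then passed the filter had a lower mean, the median was -0.61 and no member was called.

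**Figure D5:**
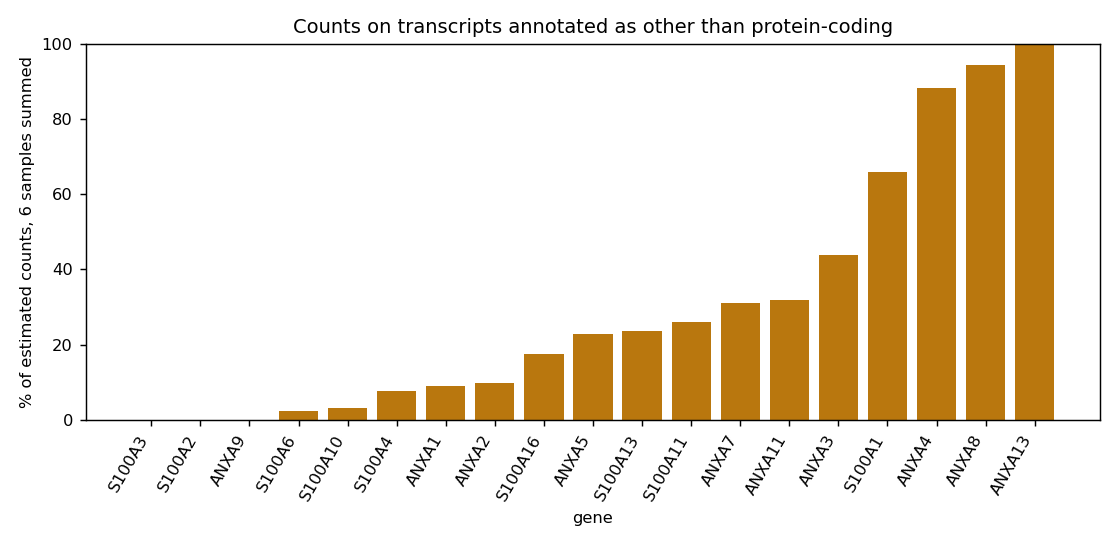
Share of each tested gene's estimated counts, summed over the 6 samples, that lay on transcripts annotated as other than protein-coding. ANXA13, ANXA8, ANXA4 and S100A1 stand above 50%, and the other 15 genes reach at most 43.8% (ANXA3).

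Some members share sequence with other genes, which limits how the authors' counting could place their reads. Of the stretches of 31 bases in ANXA8 transcripts, 50.0% also occur in ANXA8L1, and 86.5% of those in ANXA8L1 occur in ANXA8, so the pair is uncertain as separate genes. ANXA2 shares 7.38% of its stretches with the processed copy ANXA2P2, which held 2 counts in all, and ANXA2P1 held 2 to 17 counts a library. S100A1 and S100A13 lie on opposite strands and overlap in 235 exonic bases, at chr1:153628121-153628148 and chr1:153630450-153630656. Without a stated strand setting, reads from those bases cannot be told apart.

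Genes that work with the 2 families were taken from lists written with earlier results known. Of 15 tested receptors and binding partners of S100 proteins, 10 had lower and 5 higher means, with a median log2 fold change of -0.45, and none was called. The nucleobindin NUCB1, a calcium-binding Golgi protein, had 3.26, 5.4 and 6.32 CPM in DNM3OS_KD and 17.1, 8.51 and 17.1 in NT, with non-overlapping groups, a log2 fold change of -1.55 ± 0.38 and an adjusted p of 0.903 by edgeR's exact test. CD36, a scavenger receptor, lay higher in each knockdown sample, at 17.5 to 19.1 CPM against 11.96 to 15.7. CACYBP, the S100A6 partner, was the most abundant of the list at 76.1 TPM, with a log2 fold change of -0.45 ± 0.27 and overlapping groups.

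Annexin receptors, ligands and substrates had 7 lower and 4 higher means of 11 tested, with a median of -0.21. FPR1, a formyl peptide receptor that ANXA1 activates, had 12.8 to 14.0 CPM in DNM3OS_KD and 7.40 to 11.1 in NT, which did not overlap, at a log2 fold change of 0.52 ± 0.16. FPR3, of the same receptor family, had too few counts for the test, with 6.98, 8.10 and 6.32 CPM against 5.13, 3.27 and 4.71, also without overlap. FPR2, likewise untested, went the other way, with a lower mean in DNM3OS_KD and overlapping groups. It had 2.33, 3.38 and 3.51 CPM in DNM3OS_KD against 1.14, 9.17 and 2.35 in NT. PDCD6IP (ALIX), an adaptor that like ANXA7 and ANXA11 binds PDCD6, was the most abundant of that list at 39.9 TPM and a log2 fold change of 0.00500 ± 0.39. Plasma membrane repair genes had 10 lower and 5 higher of 15, with a median of -0.09. SNAP23, which drives vesicle fusion, and EHD2, which stabilises caveolae, lay above the controls in each knockdown sample at 0.47 ± 0.11 and 0.29 ± 0.12, while the ESCRT ATPase VPS4A, the most abundant at 371 TPM, was at -0.05 ± 0.17. None of these genes was called.

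Plasminogen activation genes, the pathway of surface ANXA2 and S100A10, had 6 lower and 3 higher of 9 tested, with a median of -0.07. Plasminogen itself (PLG) had 7.02 to 9.46 CPM in DNM3OS_KD and 10.5 to 11.96 in NT, without overlap, at -0.37 ± 0.13. ENO1, a plasminogen-binding glycolytic enzyme, had 22.8, 145 and 165 CPM in DNM3OS_KD and 270, 87.1 and 228 in NT, again with DNM3OS_KD 1 and NT 2 lowest. Around the S100 cluster, 6 tested neighbours of the epidermal differentiation complex had 3 lower and 3 higher means with a median of 0.00024, and the most abundant, ILF2, was at -0.25 ± 0.35. By edgeR's exact test no gene of these lists was called in either direction, and at an unadjusted p under 0.05 there was 1 of 56 tested, NUCB1, beside 1.91% of all genes tested on the lower side and 1.01% on the higher. Of the same 56, groups did not overlap for NUCB1 and PLG on the lower side and for CD36, FPR1, SNAP23 and EHD2 on the higher. The shares over all genes tested were 3.56% and 4.42%.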

How the data were processed

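Total RNA of 6 SKOV3 samples, 3 DNM3OS_KD and 3 NT, was sequenced and grouped by the sample titles. The authors quantified reads with kallisto 0.43.0 on GRCh38 transcripts, per the submitters' processing notes, and the deposited values are an unnormalized estimated count and a length-scaled TPM per transcript. The strand setting is not given in the sources used here.

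Of 173259 transcripts, 155518 matched GENCODE 44 by identifier. Estimated counts and TPM were summed per gene, and counts were rounded. Genes were filtered with filterByExpr (minimum count 10), TMM-normalized and tested with edgeR 4.0.16 (exact test, R 4.3.3) at 2-fold and a Benjamini-Hochberg adjusted p of 0.05. CPM use TMM-scaled library sizes, and standard errors come from log2 CPM (prior count 2). Counts on genes were 1523046 to 1868325 per sample, and intervals and limits from counts cover counting error only. The common biological coefficient of variation was 0.232. On simulated counts, 197 of 200 planted log2 changes of 2 were recovered with 27 other calls among 11649 genes. The changes were planted only in genes with more counts than S100A2, S100A10, S100A11 and ANXA7 had. The simulated samples were drawn independently, without the order of libraries that many genes shared here. The log2 fold changes of the tested members ran from -1.66 to 0.56, all smaller in size than the planted change. Recovery of changes as small as theirs was not tested, so the simulation does not show how many would have been missed.

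The members and lists were chosen with earlier results of these data known. Every tested member is given by sample, except ANXA3, ANXA4, ANXA9 and ANXA13, which are given in the text as group ranges. Partner genes are named when they were called, did not overlap between groups, or were the most abundant of their list. DESeq2 1.42.0, edgeR's quasi-likelihood test, other filters and scalings, length-scaled counts and leaving out samples were tried. No 2 libraries were alike enough to be one library (chi-square per degree of freedom at least 2.18).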

Additional observations from a re-analysis of the deposited data

How the results depend on the processing

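No S100 or annexin gene was called under any planned or added alternative. In the main fit used above, 1 gene was called lower. Genes called lower numbered 0 by edgeR's quasi-likelihood test and by DESeq2. They numbered 2 with no filter on low counts and with a filter of 1 CPM in 3 samples. With length-scaled counts 4 were called lower and 2 higher. Leaving out 1 sample at a time gave 0 to 3 lower and 0 to 1 higher, with 3 lower without DNM3OS_KD 3 and 0 without NT 1 or NT 3. In those fits 15 to 18 members had lower means, and their median log2 fold change was -0.74 to -0.22, with -0.22 without DNM3OS_KD 1 and -0.29 without NT 1.

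Signs turned as follows, in part for values near 0. PDCD6IP was at -0.00011 with RLE normalization and -0.00034 with the 1 CPM filter, and length-scaled counts put ANXA11 at 0.20 and VPS4A at 0.026. Leaving out single samples moved ANXA9 between -0.38 and 0.13, ANXA3 between -0.74 and 0.14, ANXA4 between -0.32 and 0.099, ANXA13 between -0.18 and 0.29, S100A11 between -1.34 and 0.13, VPS4A between -0.20 and 0.098, ILF2 between -0.45 and 0.035 and PDCD6IP between -0.23 and 0.31, and the lowest adjusted p among these was 0.844, for ILF2.

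The values gave no sign that replicate numbers pair the samples, but cannot exclude it. Deviations of same-numbered samples correlated at -0.396, -0.337 and 0.233. Those of different-numbered samples between the groups ran from -0.411 (DNM3OS_KD 3 with NT 2) to 0.533 (DNM3OS_KD 1 with NT 2). With the replicate number as a block, the quasi-likelihood test called 0 genes lower, the lowest adjusted p of a member was 0.999, and PDCD6IP was at -0.042.

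Added after seeing the data, 4 alternatives bear on the libraries and transcripts. Without DNM3OS_KD 1 and NT 2, 31 genes were called lower and 8 higher, with ANXA9 at 0.14 and VPS4A at 0.066. With coding transcripts alone, 3 were lower and 2 higher, with ANXA9 at 0.014. With the ribosomal protein share in the model, 0 were lower and 1 higher, 7 members had lower means with a median of 0.06, and these had the opposite sign: S100A6 (0.31), S100A4 (0.16), S100A13 (0.14), S100A10 (0.67), S100A11 (0.90), ANXA2 (0.19), ANXA1 (0.33), ANXA5 (0.056), ANXA9 (0.019), ANXA4 (0.0057), ANXA13 (-0.20), ANXA3 (0.40), VPS4A (0.11), ENO1 (0.25) and ILF2 (0.19). Scaling to ribosomal protein counts moved the median of all genes to 0.51, called 0 lower, left 10 members with lower means at a median of -0.13, still below that of all genes, and turned S100A1 (0.34), S100A3 (0.012), S100A11 (0.021), ANXA11 (0.29), ANXA9 (0.40), ANXA4 (0.46), ANXA3 (0.36), PLG (0.18), VPS4A (0.41), CACYBP (0.065) and ILF2 (0.25). The cause of these moves was not tested. The lowest ribosomal protein share was in a knockdown sample and the highest in a control, so share and group cannot be fully told apart.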
